A study of Mus musculus with 10 samples.

Results

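The RGS genes encode regulators of G protein signalling, and 10 of them were followed in mouse liver with and without the glucagon receptor: Rgs16, Rgs1, Rgs2, Rgs3, Rgs4, Rgs5, Rgs10, Rgs14, Rgs18 and Rgs19. Members were the array probes that carry such a name or an older synonym of it, which gave 19 probes for 10 genes of the 27670 genes on the array. Of these, 8 genes had a probe well above background in at least 4 of the 10 livers and entered the fit over 18921 genes, while Rgs4 and Rgs18 did not. The family was chosen by the KO against WT difference of Rgs16, which was strongly higher in livers without the receptor. The difference between genotypes is therefore given for the members as a description with its standard error (SE) and without a test. Female against male livers, and the genotype difference in females against that in males, were not used in the choice and were tested.

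The arrays compared liver RNA of 5 wild-type mice (WT, genotype wt/wt) with that of 5 mice homozygous for a knockout of the glucagon receptor gene (KO, genotype GCGR ko/ko). WT 1, 2 and 5 were males and WT 3 and 4 females, and KO 1 and 5 were males and KO 2, 3 and 4 females. The labels give no age, strain, diet or treatment, and do not say how the knockout allele was made. Each liver, labelled with Cy5, was hybridised with a Cy3-labelled pooled reference RNA of mouse, so every value below is a log2 ratio of liver over reference, and levels of different probes are not set against each other. Slide 1 held WT 1, WT 2, KO 1 and KO 2, slide 2 held KO 3 and KO 4, slide 3 held WT 3, WT 4 and KO 5, and slide 4 held WT 5. Slides 1 and 2 were brighter (median net Cy5 signal of a liver 108 to 129.6) than slides 3 and 4 (56.7 to 76.1). Gcgr checked the labels, at 7.99 ± 0.16 (SD, n = 5) in WT and 0.32 ± 0.04 (SD, n = 5) in KO, a difference of -7.66 (SE 0.08, limma adjusted p = 1.1e-13). Hepatocyte markers were high in every liver, with a mean over 6 markers of 6.71 to 7.28 in WT and 6.99 to 7.14 in KO, and in limma 0 of 6 passed (0 at an unadjusted p under 0.05). In whole liver, fewer cells of a type and less RNA per cell cannot be told apart.

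A receptor coupled to a G protein passes its signal on by loading the alpha subunit with GTP, and the signal ends when the subunit hydrolyses it. RGS proteins bind the loaded subunit through the RGS domain and speed up that hydrolysis, which shortens the signal. Most act on the Gi and Gq classes, while the glucagon receptor signals mainly through Gs and cyclic AMP. Rgs16, Rgs1, Rgs2, Rgs3, Rgs4, Rgs5 and Rgs18 belong to the small R4 subfamily, Rgs10 and Rgs14 to R12, and Rgs19 to RZ. In liver, Rgs16 is known as a hepatocyte gene that follows feeding, fasting and glucose.

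Of the members, 6 of 10 lie on chromosome 1: in order along it Rgs2, Rgs1, Rgs18, Rgs16, Rgs5 and Rgs4. Rgs16 was the member with the largest difference between genotypes, and Rgs2, Rgs4 and Rgs5 are R4 relatives on the same chromosome, so the stretches of 120 bases just before their annotated starts are shown for comparison. They come from RefSeq (assembly GRCm38.p6), and each reads 5′ to 3′ in the direction of the gene. The capitals mark the short core of the cyclic AMP response element (TGACG, or CGTCA on the other strand) and the CCAAT box (CCAAT, or ATTGG on the other strand). Rgs16 is chr1:153740233-153740352 on the plus strand, Rgs2 chr1:144004150-144004269 on the minus strand, Rgs4 chr1:169747643-169747762 on the minus strand and Rgs5 chr1:169655381-169655500 on the plus strand.
Rgs16: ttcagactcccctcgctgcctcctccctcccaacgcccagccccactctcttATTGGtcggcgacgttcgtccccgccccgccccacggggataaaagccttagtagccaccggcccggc
Rgs2: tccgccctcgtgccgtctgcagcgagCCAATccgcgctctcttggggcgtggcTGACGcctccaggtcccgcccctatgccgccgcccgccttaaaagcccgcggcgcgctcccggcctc
Rgs4: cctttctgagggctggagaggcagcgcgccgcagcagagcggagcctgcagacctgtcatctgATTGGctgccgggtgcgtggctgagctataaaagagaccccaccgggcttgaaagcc
Rgs5: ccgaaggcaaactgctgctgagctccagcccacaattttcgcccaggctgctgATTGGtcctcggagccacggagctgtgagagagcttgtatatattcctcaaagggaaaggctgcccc

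The RefSeq table held promoters for 7 of 10 members, in 10 windows, and Rgs1, Rgs14 and Rgs18 were not listed. Counting the base before the start as -1, the CCAAT box began at -68 in Rgs16, -67 in Rgs5, -57 in Rgs4 and -94 in Rgs2. It was not in the windows of Rgs3, Rgs10 and Rgs19, and 33.8% of all 32851 promoter windows held it within 250 bases before the start. The core TGACG or its reverse lay in Rgs2 (-185 and -67) and in Rgs4 (-236 and -141), and not in the window of Rgs16 (17.8% of all windows held it). The full cyclic AMP response element TGACGTCA (1.55% of windows) and the E box CACGTG (6.02%) were in none of the members' windows. These matches describe letters in a short window and say nothing of which factors bind there.

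Rgs16 was higher in every KO liver than in any WT liver. Its log2 ratios in WT 1 to 5 were 0.37, -0.72, 2.04, 2.37 and 2.21, and in KO 1 to 5 they were 3.06, 5.01, 5.73, 5.07 and 4.09. The WT livers fell into a low pair, the slide 1 males, and 3 livers from 2.04 to 2.37, and the KO livers into the 2 males below and the 3 females above. The means were 1.26 ± 1.37 (SD, n = 5) in WT and 4.59 ± 1.04 (SD, n = 5) in KO, and the difference at equal sex was 3.01 (SE 0.44), or 8.05-fold. The spread inside a genotype was itself wide, at 8.54-fold between the lowest and highest WT liver and 6.36-fold between the KO livers. In background-subtracted Cy5 signal, WT livers read 279.7 to 1510 and KO livers 4295 to 33040, and the probe was well above background in all 10 livers. Leaving out each liver in turn gave differences of 2.71 to 3.37.

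Genotype, sex and slide overlap in these 10 livers, and the size of the Rgs16 difference varied with slide. Within slide 1 it was 4.21, or 3.23 over its males alone, and within slide 3, where a male KO liver met 2 female WT livers, it was 1.89. The low WT pair were the males of slide 1, the WT females were on slide 3, and the male WT 5, alone on slide 4, read 2.21, between the WT females. The part of the slide in the spread of the WT livers was not tested. The Rgs16 probe lies on chromosome 1 from 153706094 to 153706153 in the older build mm7 of the array files, on transcript NM_011267.

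**Figure D1:**
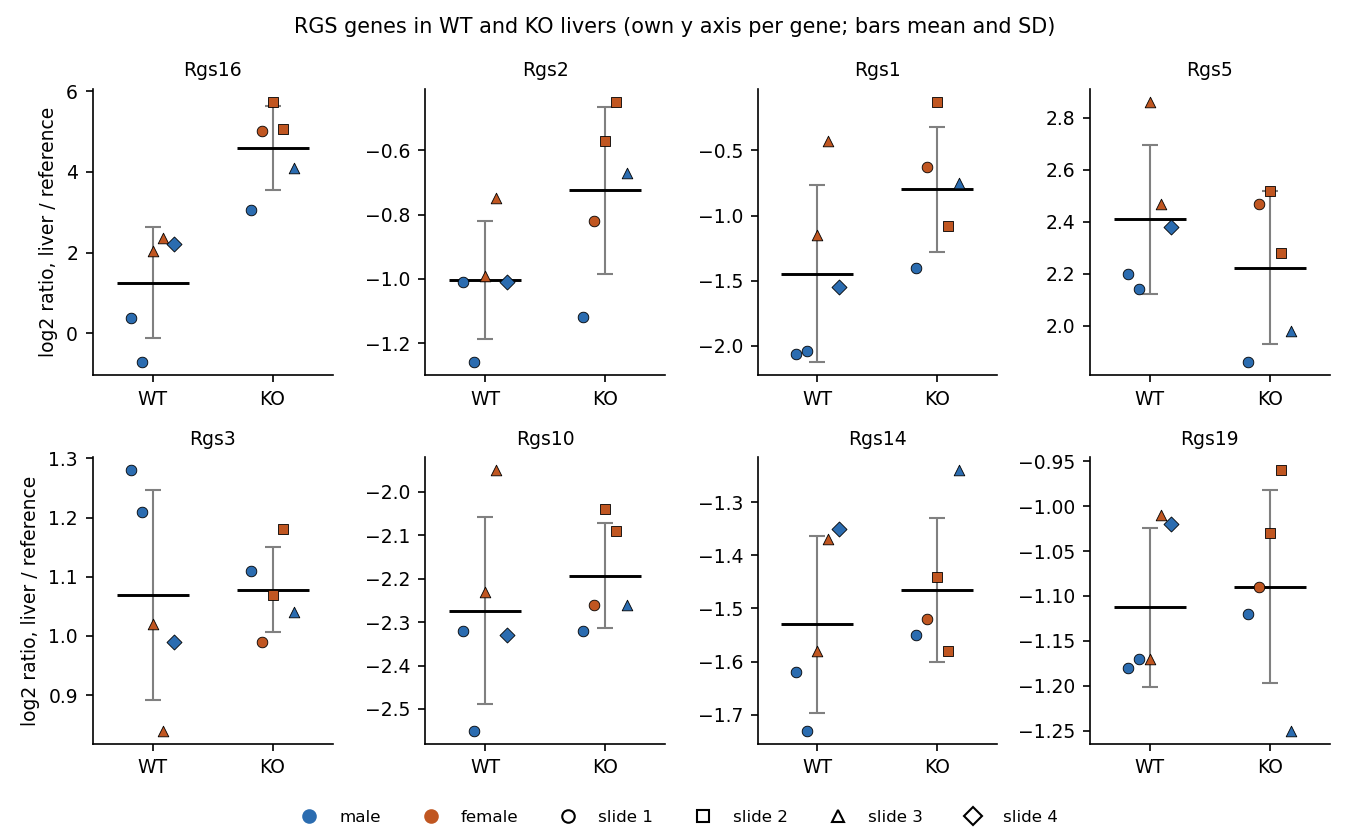
Log2 ratio of liver over reference for the 8 tested RGS genes, WT and KO side by side, with 1 point per liver, colour for sex, marker shape for slide, and black and grey bars for the mean and SD (n = 5 per genotype); each gene has its own y axis. The Rgs16 groups are apart, KO between 3.06 and 5.73 and WT between -0.72 and 2.37, while the groups of the other genes overlap.

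Rgs16 was also higher in females than in males, a contrast that did not enter the choice of the family. Means were 0.62 in the 3 WT males, 2.21 in the 2 WT females, 3.58 in the 2 KO males and 5.27 in the 3 KO females. Female minus male at equal genotype was 1.64 (SE 0.44, limma adjusted p = 0.0351), or 3.12-fold. On slide 1 the female KO liver read 5.01 and the male KO liver 3.06, the only livers that differ in sex within both a genotype and a slide. The call held in 3 of 10 fits that left out a liver, with limma adjusted p from 0.00106 (without WT 5) to 0.114 (without KO 1), and was lost without WT 1, 3 or 4 or KO 1, 2, 3 or 4. The genotype difference in females minus that in males was 0.10 (SE 0.92, 95% interval -1.93 to 2.14, limma adjusted p = 0.976). With 2 or 3 livers in each combination of genotype and sex, a sizeable difference in either direction lies inside that interval. The WT females were on slide 3 and the KO females on slides 1 and 2. Genotype and slide therefore cannot be told apart in the difference in females.

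**Figure D2:**
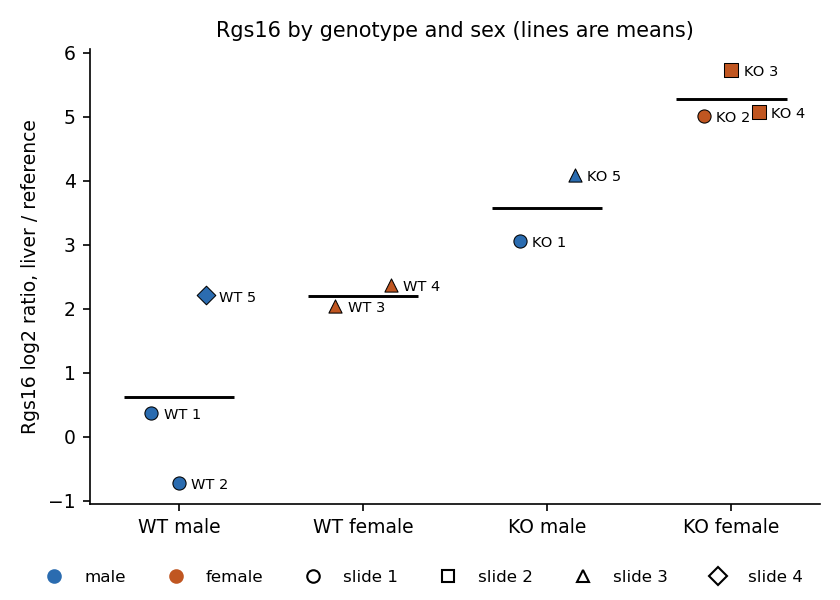
Rgs16 log2 ratio of liver over reference by genotype and sex, with 1 point per liver, its number beside it, marker shape for slide, and lines for group means. The means are 0.62 in WT males, 2.21 in WT females, 3.58 in KO males and 5.27 in KO females; WT 5, a male, lies at 2.21 among the WT females.

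Over the family, 1 of the 8 tested members, Rgs16, lay past the adjusted threshold of 0.05 for KO against WT, where 5.96% of the 18921 genes did. Since the choice rested on this gene, nothing is read from that count. The share of all genes in which every KO liver lay above every WT liver was 2.96%. The median difference of the 8 members was 0.05, beside a median of -0.0028 over all genes tested.

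Rgs2 and Rgs1 had higher KO means than WT means, with groups that overlapped. Rgs2 encodes an R4 protein that acts mainly on Gq. It read -1.01, -1.26, -0.99, -0.75 and -1.01 in WT 1 to 5 and -1.12, -0.82, -0.57, -0.45 and -0.67 in KO 1 to 5. All KO livers but KO 1 stood above 4 of the 5 WT livers, and the difference was 0.23 (SE 0.11). The second Rgs2 probe was well above background in 1 of 10 livers only, and no difference is given for it.

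Rgs1 is best known from lymphocytes, where it dampens chemokine receptor signals. It read -2.06, -2.04, -1.15, -0.43 and -1.55 in WT 1 to 5 and -1.40, -0.63, -0.13, -1.08 and -0.75 in KO 1 to 5. The groups overlapped, and the lowest livers were again the WT males of slide 1. The probe was well above background in 2 of 5 WT and 5 of 5 KO livers, so its WT values lie near the background of the array. The difference at equal sex was 0.49 (SE 0.23). Without matching for sex it was 1.04 within slide 1, or 0.65 over its males alone. Within slide 3, where a male KO liver met female WT livers, it was 0.04. Of the T cell markers 0 of 8 passed in limma (0 at an unadjusted p under 0.05), with a list mean of -0.46 to 0.06 in WT and -0.35 to -0.25 in KO. Of the B cell markers 1 of 6 tested was higher (3 at an unadjusted p under 0.05), where 2.88% of all genes were, with a list mean of -1.02 to -0.63 in WT and -0.70 to -0.42 in KO. It was Cd79b, a chain of the B cell receptor complex, higher by 0.48 (SE 0.12, limma adjusted p = 0.0324). That call was lost with median centring, with outlier spots removed after the background correction, and without WT 1, 2 or 3 or KO 1, 2 or 4, with limma adjusted p from 0.0173 to 0.0958 over the livers left out. Blk was not well above background in enough livers to be tested, and the part of B cells in the Rgs1 values was not tested.

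Rgs5 was the tested member with a lower KO mean. It is a marker of pericytes and vascular smooth muscle cells. Its brighter probe read 2.20, 2.14, 2.86, 2.47 and 2.38 in WT 1 to 5 and 1.86, 2.47, 2.52, 2.28 and 1.98 in KO 1 to 5, with groups that overlapped and the KO males lowest. The difference at equal sex was -0.28 (SE 0.09). Without matching for sex it was -0.68 within slide 3, where a male KO liver met female WT livers, and -0.0026 within slide 1. Over the males of slide 1 alone it was -0.31. The second Rgs5 probe, on transcript AK028765, gave -0.01 (SE 0.15). It read 1.99, 1.89, 2.36, 2.81 and 1.49 in WT 1 to 5 and 2.11, 2.40, 2.26, 2.11 and 2.09 in KO 1 to 5. WT 5 was the highest WT male on the brighter probe and the lowest liver of all on the second. The Cy3 signal of the reference was well above background on 4 of 10 arrays for the brighter probe and 7 of 10 for the second. Background-subtracted it was 4.45 to 83.3 and 18.4 to 37.5, so the Rgs5 ratios rest in part on a reference near background. All 11 markers of stellate cells, pericytes and smooth muscle were well above background in all 10 livers. In limma 0 of 11 passed (1 at an unadjusted p under 0.05), with a list mean of -0.96 to -0.52 in WT and -0.76 to -0.66 in KO.

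The female livers had the higher mean Rgs5 level in each genotype. Means were 2.24 in WT males, 2.66 in WT females, 1.92 in KO males and 2.43 in KO females. Female minus male was 0.46 (SE 0.09, limma adjusted p = 0.00724), and the call held in each of 10 fits that left out a liver (limma adjusted p from 0.0032 to 0.0318). On the second probe it was 0.48 (SE 0.15, limma adjusted p = 0.0651 in the fit of all probes), which missed the threshold. The call was also lost in 6 other alternatives, among them the scanner's own log ratio (1.08, limma adjusted p = 0.249) and Cy5 alone (0.36, limma adjusted p = 0.182). Of the 11 markers of stellate cells, pericytes and smooth muscle 2 passed for sex, in opposite directions: Pdgfrb, a pericyte receptor, was higher in females (0.42, SE 0.11, limma adjusted p = 0.0318) and Acta2, smooth muscle actin, lower (-0.23, SE 0.06, limma adjusted p = 0.0327). The part of these cells in the Rgs5 values was not tested.

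Rgs4 and Rgs18 were not well above background in any liver. Rgs4 is known from brain and heart, and Rgs18 from platelets and their precursors. Each gene had 2 probes, whose background-subtracted Cy5 signals lay between -3.7 and 45.1, and no difference is given. Of the platelet and megakaryocyte markers 5 of 8 were tested and in limma 0 passed (2 at an unadjusted p under 0.05), with a list mean of -1.06 to -0.96 in WT and -1.08 to -0.82 in KO. Gp1ba, Gp5 and Gp6 were not well above background in enough livers to be tested.

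Rgs3, which encodes an R4 protein with long and short forms, had 5 probes above background, and they did not move together. The brightest probe, which stands for the gene, lies on chromosome 4 from 62123297 to 62123356 (mm7, transcript NM_134257). It read 1.28, 1.21, 1.02, 0.84 and 0.99 in WT 1 to 5 and 1.11, 0.99, 1.07, 1.18 and 1.04 in KO 1 to 5, a difference of 0.03 (SE 0.09) with groups that overlapped. The probe on transcript NM_019492, at lower coordinates (62093420 to 62093479), gave 0.21 (SE 0.12), also with overlap.

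The other 3 Rgs3 probes, at higher coordinates on the same transcript NM_134257, were higher in every KO liver than in any WT liver, as 2.78% of the 26838 kept probes with no missing value were. The last of them (62135803 to 62135862) read -1.03, -2.03, -1.40, -1.83 and -1.96 in WT 1 to 5 and -0.24, -0.49, -0.21, 0.20 and -0.92 in KO 1 to 5. Its difference was 1.27 (SE 0.22), or 2.41-fold. The middle probe (62134854 to 62135772) gave 0.83 (SE 0.15) and the first (62134072 to 62134749) 0.81 (SE 0.15). KO 5, the KO liver on slide 3, was the lowest KO liver on all 3 probes. On the first probe KO 5 read -0.70, just above WT 1 at -0.73 and WT 3 at -0.74. Within slide 3 the differences were 0.69, 0.21 and 0.09 for the last, middle and first probe, against 1.16, 0.995 and 0.990 within slide 1. Sex is not matched in these values, since on slide 3 a male KO liver met female WT livers. Over the males of slide 1 alone they were 1.29, 1.03 and 0.97 for these 3 probes. In the fit of all probes these 3 lay past the threshold for KO against WT, as 5.59% of 26933 probes did (2.64% with the KO livers higher), and nothing is read from that count either. The middle probe was well above background in 3 of 5 WT livers and all KO livers, the other Rgs3 probes in all 10 livers. The probe sequences and the exons of the mm7 build were not used here, so which transcript forms each probe detects was not tested.

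**Figure D3:**
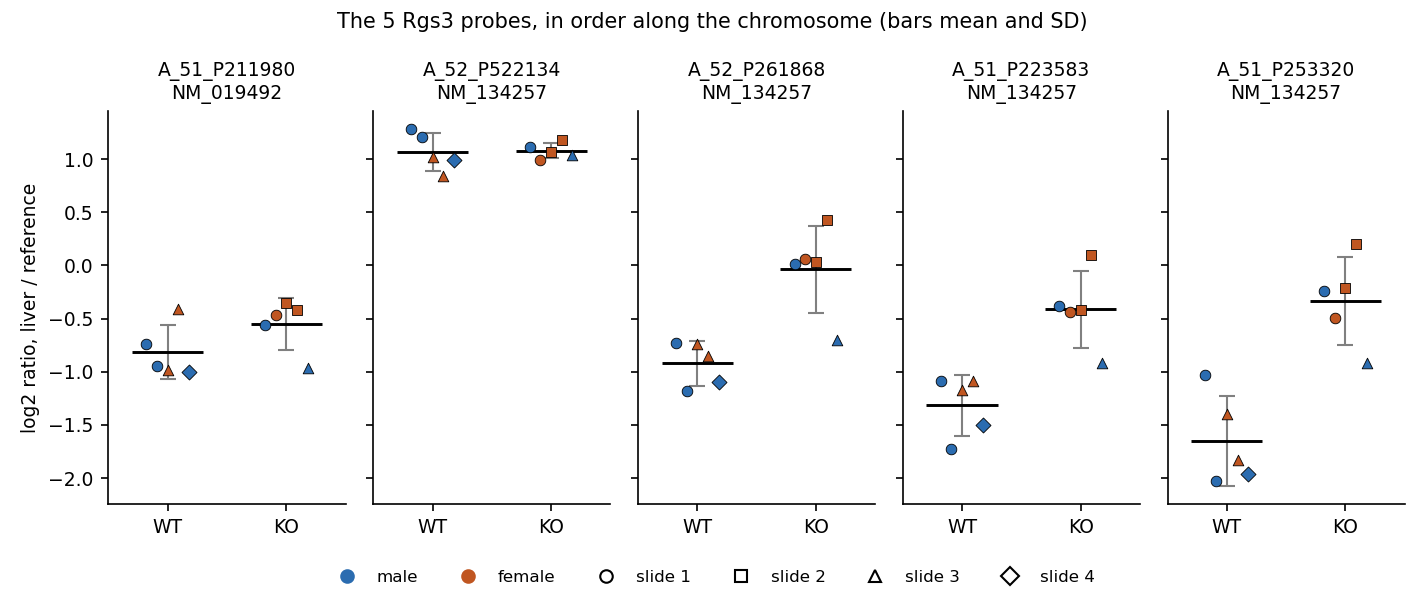
Log2 ratio of liver over reference for the 5 Rgs3 probes, 1 panel per probe in order of coordinate with the transcript named in the array files, WT and KO side by side, 1 point per liver, and bars for mean and SD (n = 5 per genotype). The groups do not overlap in the 3 panels on the right, where KO minus WT was 0.81, 0.83 and 1.27. They overlap in the 2 on the left. In the panel with 0.81, KO 5 at -0.70 lies just above WT 1 at -0.73. Levels are to be compared within a panel only.

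Rgs10 and Rgs14, of the R12 subfamily, and Rgs19, of the RZ subfamily, had means that differed between genotypes by less than their SD. Rgs10, which is abundant in immune cells, ranged from -2.55 to -1.95 in WT and from -2.32 to -2.04 in KO, a difference of 0.03 (SE 0.08). Rgs14, which also binds Gi alpha subunits through a GoLoco motif, ranged from -1.73 to -1.35 in WT and from -1.58 to -1.24 in KO, a difference of 0.07 (SE 0.10). Rgs19, also called GAIP, ranged from -1.18 to -1.01 in WT and from -1.25 to -0.96 in KO, a difference of 0.0040 (SE 0.07), and its second probe gave 0.06 (SE 0.12). The groups overlapped for all of these probes. Of the Kupffer cell and macrophage markers 0 of 8 passed in limma (1 at an unadjusted p under 0.05), with a list mean of 2.85 to 3.80 in WT and 3.21 to 3.90 in KO.

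For female against male, 3 of the 8 tested members passed, Rgs16, Rgs1 and Rgs5, all higher in females, where 11.5% of all genes passed in either direction and 4.99% were higher in females. Rgs1 was well above background in 2 of 5 male and 5 of 5 female livers, and in the 3 WT males its background-subtracted Cy5 signal was 22.4, 20.7 and 8.98. Its difference between the sexes, 0.78 (SE 0.23), therefore rests in part on WT males near the background and is given as a description. With only genes well above background in all 10 livers, Rgs1 was not tested and 2 of 7 members passed. The Rgs1 means were -1.88 in WT males, -0.79 in WT females, -1.07 in KO males and -0.61 in KO females. Rgs1 missed the threshold in 14 of 21 alternatives, and in the fits without a liver it passed only without KO 4 or KO 5 (limma adjusted p from 0.0182 to 0.153). Rgs2 (0.25, limma adjusted p = 0.188) and Rgs10 (0.24, limma adjusted p = 0.101) were in the same direction and missed the threshold, as did Rgs3 (-0.11), Rgs14 (-0.01) and Rgs19 (0.10). For the difference of the genotype effect between the sexes, 0 of 8 members passed in limma (0 at an unadjusted p under 0.05), where 0.0317% of all genes did, and every alternative that could be fitted also gave 0. Females of both genotypes shared no slide, so slide enters this contrast.

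Other genes of G protein signalling were taken from 6 lists. Of their 88 genes 71 were tested, 4 were higher and 1 lower in KO livers (7.04% in all), where 2.88% and 3.08% of all genes were, and the median difference was 0.02. Among other RGS genes and their partners 6 of 14 were tested and in limma 0 passed (0 at an unadjusted p under 0.05), with a median difference of -0.0075. Among alpha subunits 1 of 14 was higher and 1 lower, and among beta and gamma subunits 1 of 15 was higher. Among receptor kinases and arrestins 0 of 8 passed in limma (2 at an unadjusted p under 0.05), and among effectors and other modulators 1 of 16 and 1 of 12 were higher.

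Gnat1, the alpha subunit of rod transducin, fell on the probe that stands for it. It read 1.42, 1.18, 1.26, 0.86 and 1.41 in WT 1 to 5 and 0.01, 0.31, 0.11, 0.20 and 0.23 in KO 1 to 5. Every KO liver lay below every WT liver, as in 3.08% of the 18857 genes with no missing value. The difference was -1.04 (SE 0.11, limma adjusted p = 0.000376, from 0.000154 to 0.00272 without a liver each). The second Gnat1 probe, well above background in all 10 livers, gave 0.19 (SE 0.11, limma adjusted p = 0.348 in the fit of all probes) in the opposite direction, so the fall belongs to 1 of 2 probes.

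Gng11, a gamma subunit, was higher. It read 0.40, 0.15, 0.42, 0.50 and 0.10 in WT 1 to 5 and 0.68, 1, 1.24, 1.21 and 0.43 in KO 1 to 5. KO 5 lay inside the WT range, and the difference was 0.51 (SE 0.10, limma adjusted p = 0.0126). Without WT 3 the call was lost (limma adjusted p = 0.0519). Within slide 3, where a male KO liver met female WT livers, the difference was -0.03. Sex is not matched in that value, and Gng11 was higher in females (0.42, limma adjusted p = 0.0186). Gnas, the Gs alpha subunit that couples the glucagon receptor to adenylyl cyclase, was higher by 0.28 (SE 0.07, limma adjusted p = 0.038). Every KO liver lay above every WT liver, as in 2.96% of the 18857 genes with no missing value. The groups nearly touched, with KO 3 at -0.03 and WT 5 at -0.04. Of the 5 kept Gnas probes 2 passed, at 0.28 and 0.32, and the others gave 0.08, 0.02 and 0.01.

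Adcy6, an adenylyl cyclase, was higher by 0.38 (SE 0.09, limma adjusted p = 0.038), and its groups overlapped, from -1.39 to -0.96 in WT and from -1.20 to -0.37 in KO. Ric8b, a chaperone of Gs-type alpha subunits, was higher by 0.33 (SE 0.08, limma adjusted p = 0.0319), from -0.24 to -0.02 in WT and from 0.12 to 0.40 in KO, and its second probe gave 0.11. These calls lay close to the threshold. In the fits without a liver, Gnas passed only without KO 3 or WT 5 (limma adjusted p from 0.0318 to 0.112) and Adcy6 only without KO 3 or KO 5 (0.0256 to 0.119). Ric8b was lost without WT 2, 3 or 5 or KO 1 or 4 (0.0339 to 0.111).

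**Figure D4:**
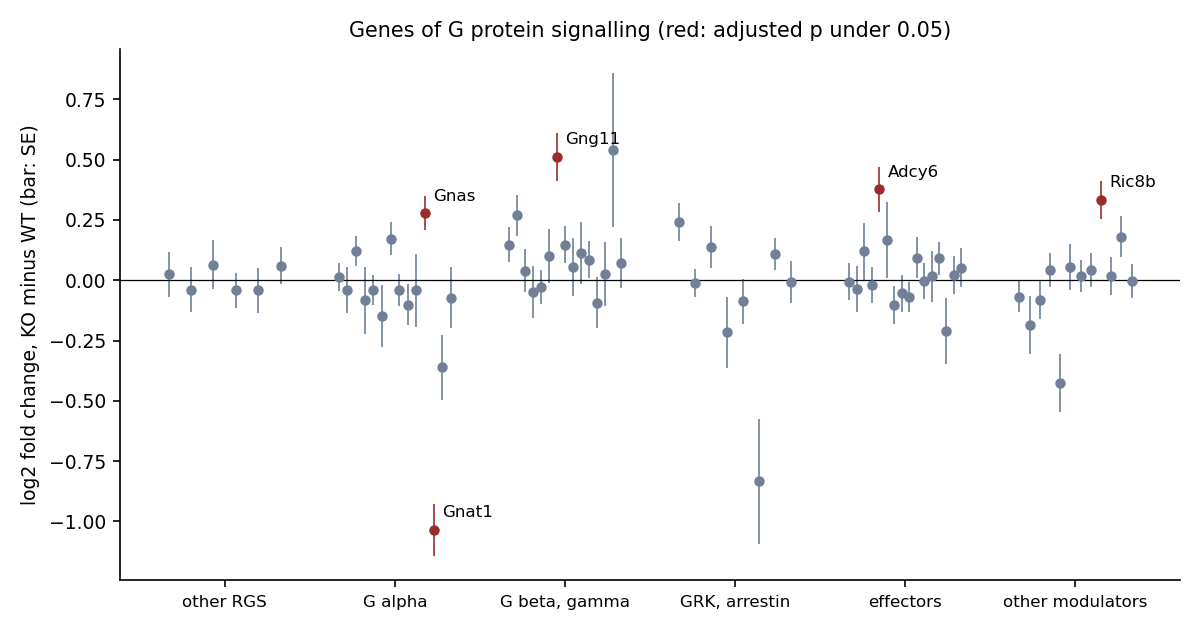
Difference between KO and WT (log2, points, with SE as bars) for the 71 tested genes of the 6 lists of G protein signalling, members left out; red points passed at an adjusted p under 0.05. Those that passed are Gnat1 at -1.04, Gng11 at 0.51, Adcy6 at 0.38, Ric8b at 0.33 and Gnas at 0.28.

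Since Rgs16 is known to respond to glucose, a list of 18 genes of the carbohydrate response (ChREBP, its partner and known targets) was set beside it. Like every list here it was chosen with earlier results of these data known. All 18 were tested, 6 were higher and 2 lower in KO livers, where 2.88% and 3.08% of all genes were, and the median difference was 0.58 against -0.0028 over all genes. The count depended on the processing. With each array centred on its median in place of loess, 3 genes were higher (Scd1, Me1 and Klf10), and with outlier spots removed after the background correction 4 were (Pklr added), and in neither did G6pc or Mlx pass. Without the sex term 3 were higher (Scd1, Me1 and Pklr) and 2 lower. With slide as a fixed block 7 were higher and 1 lower, with Acaca and Elovl6 added and Khk and G6pc lost. The median difference of the list was then 0.35. Scd1 (1.24, SE 0.19, limma adjusted p = 0.00376), a fatty acid desaturase, and Me1 (1.18, SE 0.16, limma adjusted p = 0.00222), the malic enzyme that supplies NADPH, were higher. So were Pklr (0.85, limma adjusted p = 0.0303), the liver pyruvate kinase, Acacb (0.72, limma adjusted p = 0.0476), an acetyl-CoA carboxylase, Klf10 (0.64, limma adjusted p = 0.0201), a transcription factor, and Khk (0.52, limma adjusted p = 0.0468), which phosphorylates fructose. G6pc, the catalytic glucose-6-phosphatase (-0.37, limma adjusted p = 0.037), and Mlx, the partner of ChREBP (-0.29, limma adjusted p = 0.0409), were lower. ChREBP itself (Mlxipl) differed by 0.0087 (limma adjusted p = 0.973). Scd1 and Me1 passed in all 10 fits without a liver. The call was lost for Klf10 without KO 1 or WT 3 and for Pklr without WT 2, 3 or 4 or KO 3 or 4. It was lost for G6pc without WT 1, 3 or 5 or KO 1, 2, 3 or 4, for Acacb and Khk without WT 1, 2, 3 or 4 or KO 1, 2, 3 or 4, and for Mlx without WT 1, 2, 3 or 4 or KO 1, 2, 4 or 5. On a second probe Acacb (0.15) and Mlx (-0.05) did not pass, and the second probe of Khk did (0.65). For the difference of the genotype effect between the sexes, 0 of 18 passed in limma (4 at an unadjusted p under 0.05). These 4 had larger differences in females than in males: Acacb (1.26 and 0.17), Pklr (1.36 and 0.35), Khk (0.86 and 0.17) and Fasn (1.45 and 0.20). Scd1 (1.33 and 1.14) and Me1 (1.28 and 1.07) differed less between the sexes. No slide held female livers of both genotypes, so sex and slide cannot be told apart in these contrasts.

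Among the other cell type lists, 3 of 8 endothelial markers were higher in KO livers, where 2.88% of all genes were, with a list mean of 3.02 to 3.48 in WT and 3.63 to 3.89 in KO. They were Lyve1, a hyaluronan receptor of sinusoidal and lymphatic endothelium (1.47, SE 0.25, limma adjusted p = 0.00678), Oit3 (0.34, SE 0.09, limma adjusted p = 0.0435) and Pecam1, an adhesion molecule (0.26, SE 0.07, limma adjusted p = 0.0458). In the fit of all probes the second Lyve1 probe also passed (0.92, limma adjusted p = 0.000167). The second Oit3 probe did not (0.22, limma adjusted p = 0.124). Lyve1 alone of the 8 passed with median centring, with outlier spots removed after the background correction, without the sex term and with slide as a fixed block. With the scanner's own log ratio Lyve1 missed the threshold (1.08, limma adjusted p = 0.257), as did the other markers, and without both male KO livers Lyve1 did too (1.17, limma adjusted p = 0.104). Lyve1 passed in all 10 fits without 1 liver, Oit3 only without WT 1 or KO 3 and Pecam1 only without WT 5. Within slide 3, where a male KO liver met female WT livers, Oit3 differed by -0.03. Sex is not matched in that value, and Oit3 was higher in females (0.32, limma adjusted p = 0.0393). Of the neutrophil markers 4 of 8 were tested and in limma 0 passed (1 at an unadjusted p under 0.05), with a list mean of 0.27 to 0.81 in WT and 0.43 to 1.89 in KO. The part of endothelial cells in any RGS value was not tested.

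The genes most like Rgs16 across the 10 livers were named by Pearson's r of their log2 ratios, as a description. All points share the arrays, and the gaps between genotypes and between the sexes enter each r. The 5 highest were Hspa2, a heat shock protein (0.975, or 0.914 after each genotype was centred on its own mean), Klf10 (0.967, centred 0.935), Ptbp2, a splicing regulator (0.966, centred 0.882), Ddr1, a collagen receptor (0.965, centred 0.875) and Dgkd, a diacylglycerol kinase (0.962, centred 0.867). After removal of both genotype and sex these were 0.828, 0.851, 0.716, 0.764 and 0.788 in that order. Hspa2 read -1.51, -2, -1.46, -0.90 and -1.24 in WT 1 to 5 and -0.77, -0.28, -0.16, -0.32 and -0.63 in KO 1 to 5. As with Rgs16, WT 2 was the lowest liver and KO 3 the highest. The 5 lowest were Ss18l2 (-0.964), Acp2, a lysosomal phosphatase (-0.950), Ankrd33b (-0.948), Tmem120a (-0.943) and Eef1akmt1 (-0.942). After removal of both genotype and sex they gave -0.777, -0.888, -0.656, -0.605 and -0.532 in that order. Among the members, r with Rgs16 over the 10 livers was 0.82 for Rgs2 and 0.81 for Rgs1, and lay between -0.32 (Rgs3) and 0.63 (Rgs10) for the others tested. With genotype and sex both removed, the order changed: r was 0.82 for Rgs14, 0.58 for Rgs2, 0.57 for Rgs1 and 0.54 for Rgs10, and lay between -0.52 (Rgs3) and 0.48 (Rgs5) for Rgs3, Rgs5 and Rgs19.

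The 3 genes before Rgs16 in the RefSeq order of chromosome 1 did not pass for genotype. Dhx9, an RNA helicase, differed by 0.28 (SE 0.09, limma adjusted p = 0.0962), Npl by 0.33 (SE 0.14, limma adjusted p = 0.193) and Rgs8, another R4 gene, by -0.04 (SE 0.07, limma adjusted p = 0.801). Of the genes after it, Teddm2 and Teddm1a were not well above background in any liver.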

How the data were processed

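RNA of 5 WT and 5 KO mouse livers was measured on 2-colour Agilent arrays. Agilent Feature Extraction read the scans; the submitters' processing notes give version 10.7, and it is 10.7.3.1 per the file headers. Mean spot signals and local backgrounds were deposited as linear intensity values without normalisation, per the file headers. The scanner's own LogRatio, also deposited, is a log10 ratio of Cy5 over Cy3, per the file headers. The log2 values in the authors' table run as liver over reference, since they correlated at 0.9994 to 0.9996 with the ratios computed here. Array medians in it were 0.0078 to 0.023, with a normalisation not given in the sources used here.

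Of 45018 spots, 1639 were controls. Spots that the deposited scanner flags, per the file headers, mark as outliers of the feature or its background (169 to 291 per array) were left out before normexp correction (offset 50). Log2 ratios were normalised by loess within each array, and spots of a probe were averaged (41174 probes). A probe was kept if its Cy5 signal was well above background on 4 or more of the 10 arrays (26933 probes), and the probe with the highest mean Cy5 signal stood for its gene (18921 genes, 64 with a missing value, where the fit drops that liver). The number of arrays limits the precision. Names came from RefSeq (GRCm38.p6): 22933 probes by accession, 6658 by symbol and 3109 by synonym, while 8455 kept the name in the files. Probe coordinates are those of the array files, in mm7.

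Models with genotype and sex were fitted by lmFit and eBayes of limma 3.58.1 (R 4.3.3), and an interaction model gave the difference between sexes; p-values were adjusted by Benjamini-Hochberg over all genes, with a threshold of 0.05. A gene past it is said to have passed, or to be higher or lower. The fit was tested on simulated data.

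The members and all gene lists were chosen with earlier results of these data known. Named were all members, each gene of the pathway, carbohydrate and marker lists that passed for genotype, the 5 genes most and the 5 least correlated with Rgs16, and up to 3 neighbours of Rgs16 on each side, of which 1 is not reported here. Alternatives covered the flags, background, scaling, dim probes, sex, slide, replicate numbers, probe choice and each liver left out. Counting a member by any of its probes, refitting the other Rgs3 probes, and counting the carbohydrate, endothelial and B cell lists under each scaling, were added after seeing the data.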

Additional observations from a re-analysis of the deposited data

How the results depend on the processing

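Rgs16 kept its direction under all 25 alternatives, with KO minus WT from 1.89 to 4.21. The interaction gave 0 members throughout. With the scanner's own log ratio, KO minus WT was 1.31 for Rgs1 (0.49 in the main fit) and -0.92 for Rgs5 (-0.28). For the middle and first of the 3 Rgs3 probes without overlap it was 1.70 (0.83) and 1.21 (0.81). The sizes of these differences thus depended on the processing. Members past the threshold for genotype (1) were 2 with the mean over a gene's probes and 2 by any kept probe, Rgs3 added, and 1 to 2 without a liver each (2 without WT 4). Members past it for sex (3) were 1 with flags removed after normexp, 1 with the scanner's log ratio, 0 with the replicate block and 1 without both male KO livers (1 to 3 without a liver each). G protein pathway genes (5) were 2 with flags after normexp, 1 with median centring, 3 with Cy5 alone, 2 without the sex term, 3 with slide as a fixed block, 1 with the replicate block and 3 with the mean over probes (2 to 6 without a liver each). With the replicate block, the carbohydrate genes past it (8) were 2, Scd1 and Me1, and the endothelial markers (3) were 1, Lyve1. Within slide 3, where a male KO liver met female WT livers, Gng11 was -0.028 and Oit3 -0.027. Sex is not matched in these 2 values, and both genes were higher in females at equal genotype. The causes were not tested.

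Genes past the threshold numbered 1127, but 279 with median centring, 339 with flags after normexp, 303 with the replicate block, 619 without the sex term, and 590 to 1173 without a liver each. The higher share was 48.4%, 72% with median centring and 59% with flags after normexp. Between livers with the same replicate number, deviations from the genotype mean correlated at -0.425 to 0.53. Sex was not removed from them, and the pair of opposite sex, WT 2 and KO 2, gave -0.425. These values therefore cannot show whether the numbers mark pairs. Signal near background limits Rgs1, and hides Rgs4 and Rgs18. A reference signal near background limits Rgs5.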

Other observations

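Of the 71 tested genes of G protein signalling outside the family, 10 (14.1%) passed for female against male, 6 higher and 4 lower in females, a share near the 11.5% of all genes that passed. They were named after their values were seen. Among alpha subunits 3 of 14 tested passed, all lower in females: Gnai1, an inhibitory alpha subunit (mean 0.85 in males and -0.35 in females, difference at equal genotype -1.17, SE 0.13, limma adjusted p = 0.000165), Gna14, of the Gq class (-0.53, SE 0.14, limma adjusted p = 0.0283) and Gnal, a relative of Gnas (-0.37, SE 0.08, limma adjusted p = 0.0158). Adcy6 was lower in females as well (-0.40, SE 0.09, limma adjusted p = 0.0169). Higher in females were the arrestins Arrb1 (0.26, limma adjusted p = 0.0467) and Arrb2 (0.21, limma adjusted p = 0.0403), which end receptor signalling, Gng11 (0.42, limma adjusted p = 0.0186), Axin2, a Wnt target with an RGS domain (0.47, limma adjusted p = 0.0276), and the sorting nexin Snx13 (0.32, limma adjusted p = 0.0241). Rgs12, an R12 relative of Rgs10 and Rgs14, was the 1 of 6 other RGS genes that passed for sex, higher in females by 0.49 (SE 0.09, limma adjusted p = 0.0056), and its difference between genotypes was -0.04 (SE 0.09, limma adjusted p = 0.861).

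Grk5, a receptor kinase named after its values were seen, did not pass for genotype (-0.83, SE 0.26, limma adjusted p = 0.0879). Every KO liver lay below every WT liver, as in 3.08% of the 18857 genes with no missing value. The difference was -1.43 in males and -0.24 in females, and the gap between the sexes did not pass (limma adjusted p = 0.289). No slide held females of both genotypes, so genotype and slide cannot be told apart in the female value. Its WT livers spread widely, at 0.27 ± 0.74 (SD, n = 5), against -0.65 ± 0.09 (SD, n = 5) in KO.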
